A study of Homo sapiens with 2 samples.

Results

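Microexons are described here as they appear in poly(A) RNA sequencing of A673 cells, an established human Ewing sarcoma line driven by a fusion of EWSR1 and FLI1. They were taken as every record of the 2 deposited exon tables that is 30 bases or fewer, with chrY left out. This gave 2241 of 230470 exon records, listed under 1670 gene symbols at 2206 distinct positions. Of these, 705 records (598 gene symbols) held 20 or more reads summed over both libraries, 587 held 1 to 19 and 949 held 0. Folds are given for the 705 records only. One library came from cells transduced with a lentiviral short hairpin RNA against the transcription factor RUNX3 (hairpin name 813), the other from cells with a non-target hairpin (NT). Both received virus harvested at 72 hours, with polybrene at 6 µg/mL, and then went through 6 days of selection in 0.4 µg/mL puromycin, and the titles call each library a pool. No genotype other than that of the cell line is given, and there was 1 library per group, so nothing was tested and no difference has a replicate check.

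For both libraries the title names one hairpin and the shRNA characteristic the other. The titles were followed, and the libraries are called the 813 library and the NT library after them. With the characteristics in place of the titles, every direction given here would be the opposite. RUNX3 itself, the targeted gene, had 387 read pairs in the 813 library and 1391 in the NT library, with a log2 fold of -1.92 (95% interval -2.09 to -1.76), which goes with the titles and against the characteristics. Gene counts summed to 46936662 reads in the 813 library and 48921868 in the NT library. All 8 Ewing sarcoma marker genes listed were measured, including CD99 and NKX2-2, while of 4 epithelial markers the keratins KRT8 and KRT18 were measured and EPCAM and CDH1 had at most 1 pair in either library. Among the Ewing sarcoma markers NKX2-2 and NR0B1 had log2 folds of -1.43 (-1.50 to -1.36) and -1.11 (-1.17 to -1.04). STEAP1 and GLI1 had -0.83 and -0.63. CCND1, PRKCB, LIPI and CD99 had 0.62, 0.15, 0.22 and 0.08, the other way. Intervals are exact 95% intervals from 1 library per group and cover counting error only.

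An internal exon is normally recognised as a unit by splicing factors bound at both of its ends, and an exon of a few codons leaves little room for this. Such exons are retained with help from nearby intronic and exonic enhancers. In neurons the protein SRRM4 promotes the inclusion of many of them, PTBP1 represses many of them in other cells, and those that preserve the reading frame insert a few residues into proteins of the synapse, the cytoskeleton and vesicle traffic.

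Sequences were taken from GENCODE release 29 transcripts (build GRCh38) by matching the gene symbol, the exon length and the flanking intron lengths, without converting coordinates. Intron lengths were compared with the distances to any other record of the gene on that side. An exon at the end of a transcript was matched on its inner side only. The match was made for 1665 of the 2241 records. Positions are those of the deposited tables, in hg19. Each sequence is 5′ to 3′ on the transcript, with the short exon in capitals and, where the stretch is coding, 12 bases of the neighbouring exons in lower case. The first set holds the matched records whose reads departed from the rest of their gene by the rule given further on. The 26-base sequence of GSTM2 was found in transcripts of no other gene of that release.
GSTM2, 26 bases, chr1:110224431-110224456, plus strand: CATTCCTGATGTTTGGATTCAGGCTG
TRIO, 28 bases, chr5:14497956-14497983, plus strand: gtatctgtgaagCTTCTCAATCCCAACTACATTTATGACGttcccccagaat
TRIM39-RPP21, 23 bases, chr6:30307685-30307707, plus strand: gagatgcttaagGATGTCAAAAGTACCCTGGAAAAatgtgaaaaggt

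The second set holds exons of genes known for regulated microexons, with the short exon of EWSR1, because their read density in these cells is described below. The 12-base exon of KDM1A is the one known from the neuronal form of this histone demethylase, and the 21-base exon of MEF2D is the one known from the muscle form of this transcription factor. In DCTN1 3 short exons follow each other, and in PTPRS the 9-base exon is followed by the 18-base exon, so the flank of one is the start or end of the next.
KDM1A, 12 bases, chr1:23392553-23392564, plus strand: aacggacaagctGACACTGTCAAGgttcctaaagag
MEF2D, 21 bases, chr1:156446286-156446306, minus strand: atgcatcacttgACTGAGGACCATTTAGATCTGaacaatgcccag
EIF4G1, 21 bases, chr3:184034501-184034521, plus strand: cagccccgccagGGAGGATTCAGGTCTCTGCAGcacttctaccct
KIF1A, 27 bases, chr2:241711987-241712013, minus strand: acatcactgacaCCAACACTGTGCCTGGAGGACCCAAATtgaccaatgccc
DCTN1, 21 bases, chr2:74603869-74603889, minus strand: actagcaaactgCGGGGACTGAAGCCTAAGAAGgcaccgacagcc
DCTN1, 18 bases, chr2:74601450-74601467, minus strand: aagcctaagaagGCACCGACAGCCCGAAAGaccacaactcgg
DCTN1, 21 bases, chr2:74600055-74600075, minus strand: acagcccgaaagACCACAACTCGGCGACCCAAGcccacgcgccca
PTPRS, 9 bases, chr19:5262975-5262983, minus strand: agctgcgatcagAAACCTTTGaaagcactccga
PTPRS, 18 bases, chr19:5260816-5260833, minus strand: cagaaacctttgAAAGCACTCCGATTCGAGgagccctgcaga
EWSR1, 18 bases, chr22:29670254-29670271, plus strand: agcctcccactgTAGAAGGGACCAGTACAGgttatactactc

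The third set shows examples of the repeated short exons of collagen and butyrophilin genes.
COL6A1, 27 bases, chr21:47409666-47409692, plus strand: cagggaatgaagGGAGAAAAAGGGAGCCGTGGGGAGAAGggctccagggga
COL6A1, 27 bases, chr21:47410172-47410198, plus strand: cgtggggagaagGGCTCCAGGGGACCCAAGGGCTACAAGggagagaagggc
COL16A1, 27 bases, chr1:32146506-32146532, minus strand: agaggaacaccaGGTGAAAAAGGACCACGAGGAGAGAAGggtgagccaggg
BTN3A3, 27 bases, chr6:26448956-26448982, plus strand: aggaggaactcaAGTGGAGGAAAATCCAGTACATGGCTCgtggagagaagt
BTN3A3, 27 bases, chr6:26449890-26449916, plus strand: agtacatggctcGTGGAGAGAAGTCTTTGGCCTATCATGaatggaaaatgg
BTN3A3, 27 bases, chr6:26450335-26450361, plus strand: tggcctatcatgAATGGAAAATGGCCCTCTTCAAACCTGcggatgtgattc

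The lengths of the records followed the reading frame. Of the 2241 records, 1206 (53.8%) had a length divisible by 3, against 44.5% of the 14719 records of 31 to 60 bases and 39.1% of the 114012 records of 61 to 150 bases. The most frequent length was 27 bases with 290 records, followed by 30 bases with 265. Of the 1665 matched records, 1463 were wholly coding and 698 (41.9%) were skipped in at least 1 transcript that spans them. Among coding records that some transcripts skip, 450 of 617 (72.9%) were divisible by 3. Among coding records present in every spanning transcript, 446 of 846 (52.7%) were. Among records with 20 or more reads the shares were 68.5% of 251 and 49.8% of 269. Coding exons that some GENCODE transcripts skip therefore kept the frame in a larger share of records than those that no spanning transcript skips. This held over all records and over those with 20 or more reads. Skipping in these cells was not measured.

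**Figure D1:**
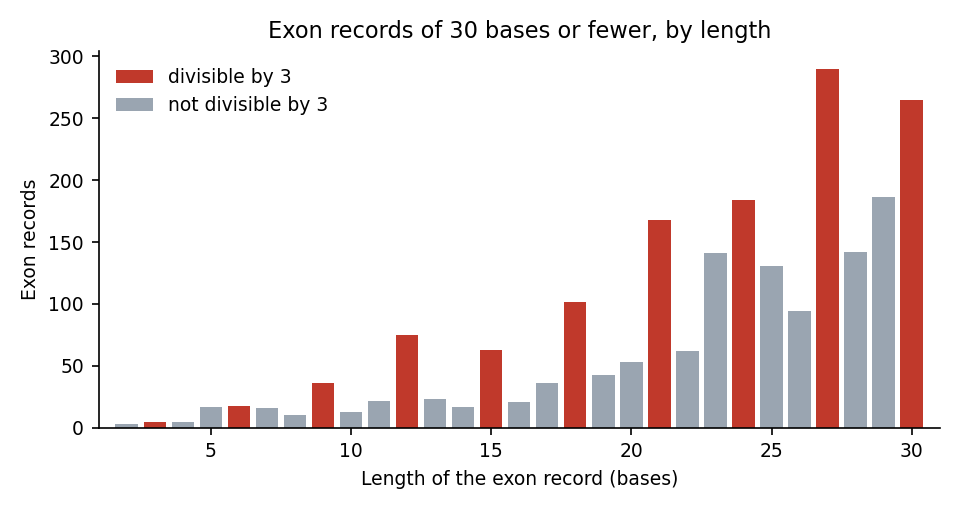
Number of exon records (vertical axis) at each length in bases (horizontal axis), from 2 to 30 bases, with lengths divisible by 3 in red. Each multiple of 3 from 9 bases upward stands above both of its neighbours, up to 290 records at 27 bases and 265 at 30.

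In placement, 312 of the 2241 records (13.9%) were the outermost of their gene and 139 (6.20%) touched or overlapped another record of it. A further 40 records, 9 of them with 20 or more reads, ended within 30 bases of another record without touching it. Among these was the 3-base record of AP2M1, a subunit of the clathrin adaptor, which lay 1 base from the next record, and the 3-base record of the lipid transporter gene ABCA2, which lay 5 bases from the next. Such gaps are shorter than a spliced intron, and these records are not read here as microexons with introns on both sides. No density or departure set below leaves them out, except where stated. The ABCA2 record is among the called departures, and the AP2M1 record is among those of genes known for regulated microexons. Another 104 records carried small RNA gene names, 16 of them with 20 or more reads.

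Relative read density was taken for each short exon. It is the reads per possible start position of a touching read, divided by the same over the gene's other records. Reads that skip an exon were not counted, so this density does not measure how often the exon was included. A value of 1 means that a record was read as densely as the rest of its gene. This measure was taken for 639 internal records that touch no other and whose gene held 1000 or more other reads. The median was 1.09, with 10% of records below 0.54 and 10% above 1.66, against a median of 1.18 for 5481 records of 31 to 60 bases. Even the 37 records of 10 bases or fewer had a median of 1.10. Records that some transcripts skip had a median of 1.03 (280 records) and records in all spanning transcripts 1.15 (288 records). Within the set, 19 records lay under 0.1, and 12 of those had 0 reads in both libraries. The 19 are 2.97% of the set, against 1.82% of records of 31 to 60 bases and 1.51% of records of 61 to 150 bases. The 2 libraries had medians of 1.09 each.

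**Figure D2:**
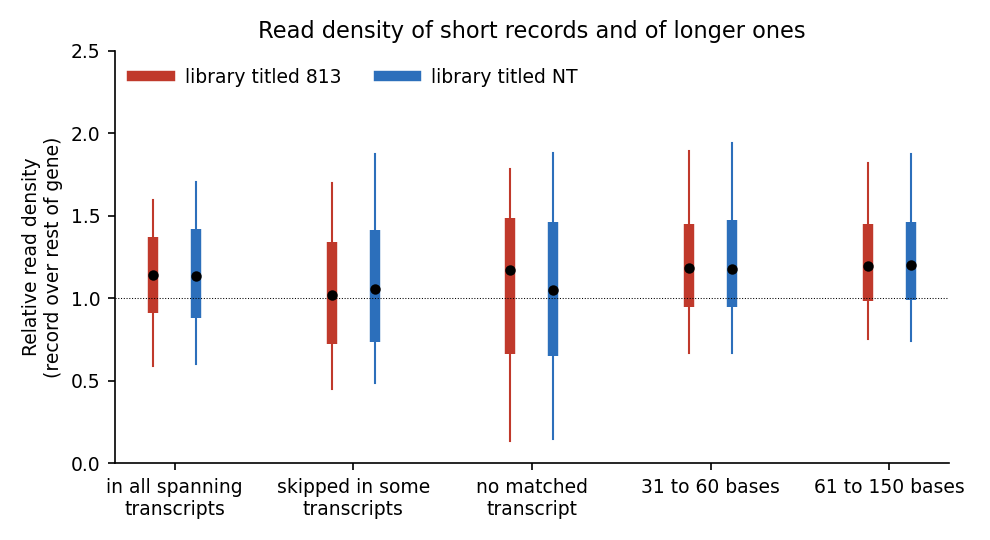
Relative read density (vertical axis; 1 is the density of the rest of the gene) for short records in all spanning transcripts, short records skipped in some, short records with no matched transcript, and records of 31 to 60 and 61 to 150 bases, in the 813 library (red) and the NT library (blue). Points are medians over records, thick bars hold the middle 50% and thin bars the middle 80%, and the 2 libraries lie close together in every class while records skipped in some transcripts reach lower than those in all.

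Of the 10 records with the most reads, 5 belonged to ribosomal protein genes and 1 carried a miRNA gene name. The ribosomal protein gene RPL13 had a 21-base record (chr16:89627986-89628006) with 8024 reads in the 813 library and 18043 in the NT library, and a 12-base record with 6062 and 13219 reads. Both were lower in the 813 library, by log2 folds of -1.24 and -1.20, and the other records of RPL13 had -1.20 to -1.21 beside them. Ribosomal protein genes have processed copies in the genome, so the counts of these genes are uncertain. RPL41, another ribosomal protein gene, had a 23-base record with 10010 and 9525 reads and a 25-base record with 7293 and 6997, and RPL3 had a 19-base record with 4223 and 4392. The 25-base record listed under MIR3654, an end record unmatched to a transcript, had 10699 and 13922 reads, a log2 fold of -0.45 beside -0.44 for the other record of that name. PKM2, the gene of a glycolytic pyruvate kinase, had a 17-base record with 10113 and 9207 reads. MYL6, a myosin light chain, had a 28-base record with 6865 and 6298 reads, BSG, the membrane protein basigin, a 25-base record with 5047 and 4147, and EIF4A1, a translation initiation helicase, an 18-base record with 4002 and 4729. In each of the 10 the log2 fold differed from that of the rest of the gene by 0.06 or less. The records of RPL13, RPL3, PKM2 and EIF4A1 and the 25-base record of RPL41 overlap or touch another record of their gene and share reads with it.

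Among the shortest records with enough reads, the 6-base record of PSAP (chr10:73582411-73582416), the precursor of the lysosomal saposins, had 3028 reads in the 813 library and 2278 in the NT library. Its relative density was 1.17 in both, and its log2 fold was 0.34 beside 0.33 for the other PSAP records, a departure of 0.00 (-0.11 to 0.11). The 5-base record of NAV1, a neuron navigator gene, had 60 and 24 reads, with relative densities of 1.36 and 1.08. Its log2 fold was 1.23 (0.24 to 2.35) beside 0.92 for the rest of NAV1. The 4-base record of LMF1, a lipase maturation factor, had 21 and 24 reads and a departure of 0.74 (-0.53 to 2.12), and it lies 21 bases from the next record.

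To ask whether any short exon moved apart from its gene, the fold of each record was divided by that of the other records of the same gene; this log2 difference is called the departure. A departure was called when it was 2-fold or more with its interval wholly on 1 side of no difference. Of 698 records with enough reads in the rest of their gene, 5 were called, 2 higher and 3 lower in the 813 library. By the same rule 0.78% of 113784 records of all lengths were called (0.379% higher and 0.402% lower), and 0.333% of 6298 records of 31 to 60 bases (0.127% higher and 0.206% lower); 5 of 698 is 0.716%, near the share for all lengths. The median departure was 0.00, and 607 of 698 records (87.0%) departed by less than 1.5-fold, against 89.9% of records of 31 to 60 bases. With the sign left aside the median departure was 0.18, against 0.16 for records of 31 to 60 bases and 0.16 for all lengths. Of the 246 records with 200 or more reads, 1 departed by 1.5-fold or more. Short exons thus mostly followed their genes at this depth, though no more closely than other records, with GSTM2 as the only deeply read exception. Depth differed in this comparison. Among records of 20 or more reads, the median of summed reads was 120 for short records and 227 for all lengths. The part of depth in the comparison was not tested.

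**Figure D3:**
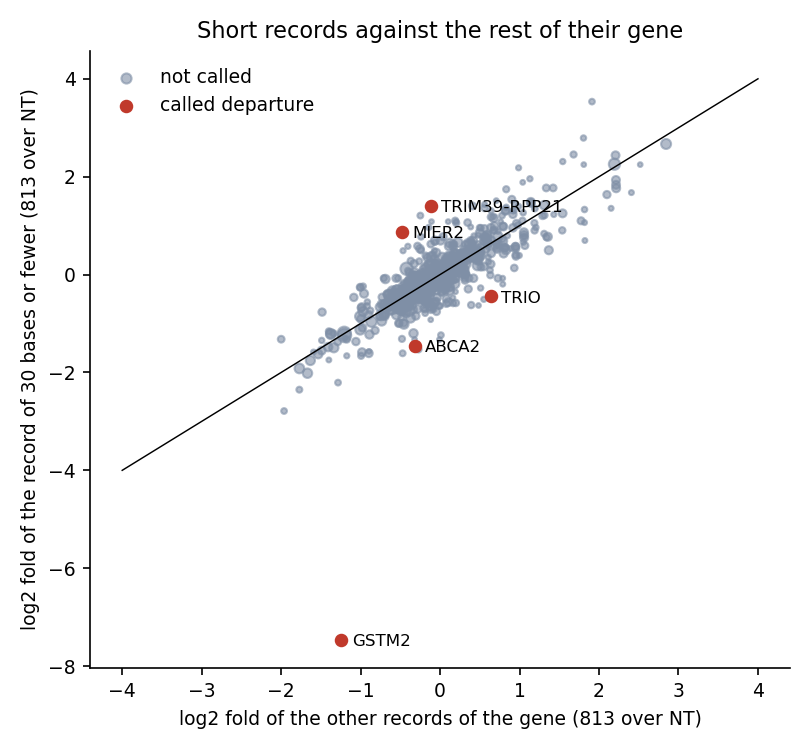
Log2 fold of each short record (vertical axis) against the log2 fold of the other records of its gene (horizontal axis), 813 library over NT library, for 698 records, with larger points for more reads and a line of equality. Red points are the 5 called departures, and GSTM2 lies far below the line at -7.46 beside -1.24.

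GSTM2 encodes a mu-class glutathione transferase, an enzyme that conjugates glutathione to electrophiles. Its 26-base record (chr1:110224431-110224456) had 2 reads in the 813 library and 418 in the NT library. The departure was -6.22 (-11.9 to -4.04), on a fold of -1.24 for the other records. The relative density of the exon was 0.0095 in the 813 library and 0.89 in the NT library. The change took in the record that follows it as well. The last record of the gene, of 791 bases, had 20 and 426 reads, a log2 fold of -4.45 (-5.57 to -3.58). The 8 records before the short exon had log2 folds between -0.88 and -1.92, the weakest at the 540-base record with 3330 and 5813 reads. The 2 matched transcripts include the exon, which is coding in part, and 1 spanning transcript skips it. At gene level GSTM2 had 1048 and 1859 pairs, and GSTM1, GSTM3 and GSTM4, its close paralogs in the same cluster, had log2 folds of -0.58, -0.64 and -0.82. Mu-class genes are similar in sequence, so reads over shared GSTM2 exons are uncertain. Apart from the short record, GSTM2 exon reads summed to 6685 and 15013, beside the 1048 and 1859 pairs at gene level. A read counts in each record that it touches, so exon reads exceed gene counts over all genes too. In the 813 library these were 63564595 and 46936662.

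**Figure D4:**
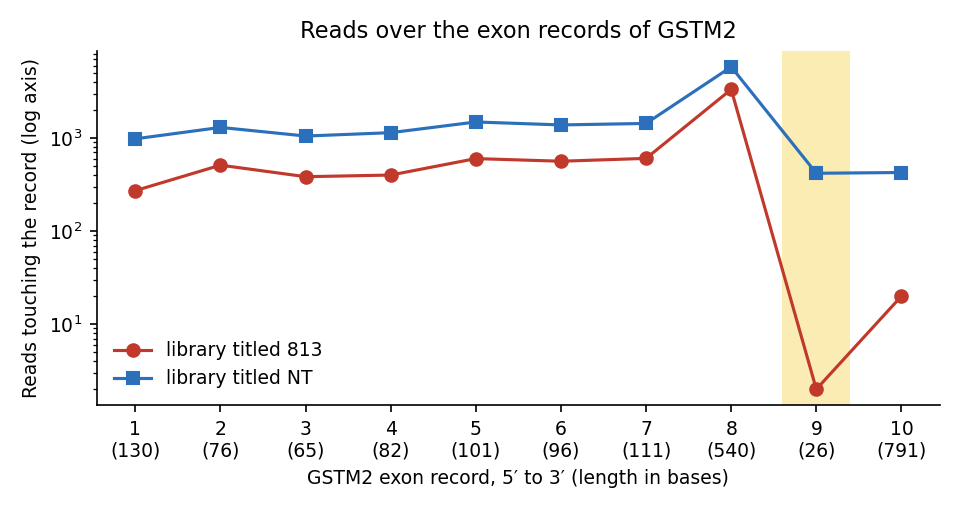
Reads touching each of the 10 GSTM2 exon records, in 5′ to 3′ order with the record length in brackets (horizontal axis), on a log axis of reads (vertical axis), in the 813 library (red circles) and the NT library (blue squares). The shaded 26-base record falls to 2 reads against 418, and the last record stands at 20 against 426.

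The other 4 called records rested on few reads. TRIO encodes a guanine nucleotide exchange factor. Its 28-base record (chr5:14497956-14497983) had 30 reads in the 813 library and 39 in the NT library, while the other TRIO records had a log2 fold of 0.64. The departure was -1.09 (-2.20 to -0.08), with relative densities of 0.99 and 2.12. The 3-base ABCA2 record had 23 and 61 reads and a departure of -1.14 (-2.22 to -0.12). The 23-base record of the readthrough gene TRIM39-RPP21 (chr6:30307685-30307707) had 51 and 18 reads and a departure of 1.52 (0.43 to 2.86). Records 1 to 6 of that gene, this one among them, had log2 folds of 0.36 to 1.40, and records 7 to 10 had -0.32 to -0.16. Records 7 to 10 held most of the reads that the departure was measured against. The same position is listed under TRIM39, a ubiquitin ligase gene, where the departure was 0.99 (-0.11 to 2.34) and was not called. The 18-base record of MIER2 (chr19:344774-344791), a gene for a nuclear corepressor subunit and here the outermost record, had 37 and 19 reads and a departure of 1.34 (0.14 to 2.60). Measured against only the nearest record on each side, GSTM2 alone stayed called, at -6.49 (-12.1 to -4.31). The interval of TRIO then ran to 0.07, that of ABCA2 to 0.08, that of TRIM39-RPP21 from -0.31 and that of MIER2 from -0.45.

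Genes known for regulated microexons were taken from a list of 118 genes drawn up from general knowledge. Of these, 65 had a short record, with 105 records in all, of which 47 in 30 genes held 20 or more reads and 27 held 0. None of the 47 was called, beside 0.78% of all records. Their departures ran from -0.98 (CLASP1, a microtubule-binding protein, 11 and 12 reads) to 1.62 (MACF1, a cytoskeletal crosslinker, a 7-base record with 30 and 2 reads and an interval of -0.78 to 7.32), with a median of 0.04. For 32 records in 23 of these genes, GENCODE has transcripts with and without the exon and further limits were met. These limits were 1000 or more reads in the gene's other records, and no other record touching or within 30 bases. The relative density of the 32 records ran from 0.39 to 1.60, with a median of 0.81. Of the 32 records, 4 lay under 0.5, 15 between 0.5 and 1 and 13 at 1 or more. These 32 records were taken from those with 20 or more reads, so being read was set by that limit. The limit also left out exons read more thinly, and the distance limit left out the AP2M1 record, at 0.27 over both libraries. The low end of the range therefore depends on these limits. Most of the 32 were read less densely than the rest of their gene.

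The 12-base exon of KDM1A (chr1:23392553-23392564) had 280 reads in the 813 library and 362 in the NT library. Its relative density was 1.18 and 1.24, beside 1.48 and 1.54 for the 95-base record before it and 1.34 and 1.33 for the 143-base record after it. The departure was -0.07 (-0.40 to 0.26). The 21-base exon of MEF2D had 27 and 37 reads, with relative densities of 0.97 and 1.11 beside 1.44 to 1.88 for the records on either side. Both exons were thus read at densities below those of their neighbours and similar between libraries. Another exon, the 12-base exon of DNM2, a dynamin of endocytosis, had 389 and 397 reads and relative densities of 1.29 and 1.19.

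Other exons were read at lower density. The 21-base exon of EIF4G1 (chr3:184034501-184034521), a scaffold of the translation initiation complex, had 298 and 336 reads and relative densities of 0.43 and 0.43, with a departure of -0.01 (-0.34 to 0.31). The records beside this exon were low as well, at 0.50 and 0.54 before it and 0.71 and 0.75 after it. In KIF1A, a kinesin that moves synaptic vesicle precursors, the 27-base exon (chr2:241711987-241712013) had 267 and 380 reads and relative densities of 0.56 and 0.54. The 18-base KIF1A exon, present in all spanning transcripts, had 436 and 624 reads and relative densities of 1.04 and 1.01. Both exons of KIF1A followed the gene, with departures of 0.05 (-0.28 to 0.38) and 0.04 (-0.22 to 0.30). The 27-base exon of TPD52L2, a gene of the tumour protein D52 family, had 323 and 333 reads and relative densities of 0.64 and 0.69. The 27-base exon of GIT1, a GTPase-activating scaffold protein, had 195 and 197 reads at 0.73 and 0.62. SPTAN1 encodes a spectrin of the membrane skeleton. Its exons of 24 and 18 bases, present in all spanning transcripts, had 190 and 241 reads at densities of 0.91 and 1.07, and 201 and 211 reads at 1.04 and 1.02. The 3-base record of AP2M1 had 250 and 318 reads at 0.26 and 0.28. That record lies 1 base from the next and is not read here as a separate exon.

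DCTN1 encodes the largest subunit of dynactin, the activator of the dynein motor. Its 3 consecutive exons of 21, 18 and 21 bases (chr2:74603869-74603889, chr2:74601450-74601467 and chr2:74600055-74600075) had 232, 230 and 234 reads in the 813 library and 250, 249 and 251 in the NT library. A read that crosses one of them touches the next wherever a transcript holds both, so these counts can share reads and are not separate measurements. The 18-base record also overlaps a 413-base record of DCTN1, with 242 and 256 reads. Their relative densities were 0.66 to 0.68 in the 813 library and 0.59 to 0.61 in the NT library. A further exon, of 15 bases and further downstream, had 258 and 316 reads and relative densities of 0.80 and 0.81. The 4 departures lay between -0.03 and 0.16.

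PTPRS encodes a receptor tyrosine phosphatase of growth cones and had 5 short records with enough reads. The 9-base and 18-base exons (chr19:5262975-5262983 and chr19:5260816-5260833) each had 104 reads in the 813 library and 103 in the NT library, the same reads in part, since they are neighbours. A 12-base exon (chr19:5218798-5218809) had 158 and 140 reads and relative densities of 1.68 and 1.51. Another 12-base exon (chr19:5256119-5256130) had 62 and 61 reads at 0.65 and 0.65, and a 27-base exon had 64 and 52 at 0.55 and 0.45. Over both libraries together the exons of this gene differed in density from 0.50 to 1.60, while the departures between libraries ran from -0.01 to 0.27.

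**Figure D5:**
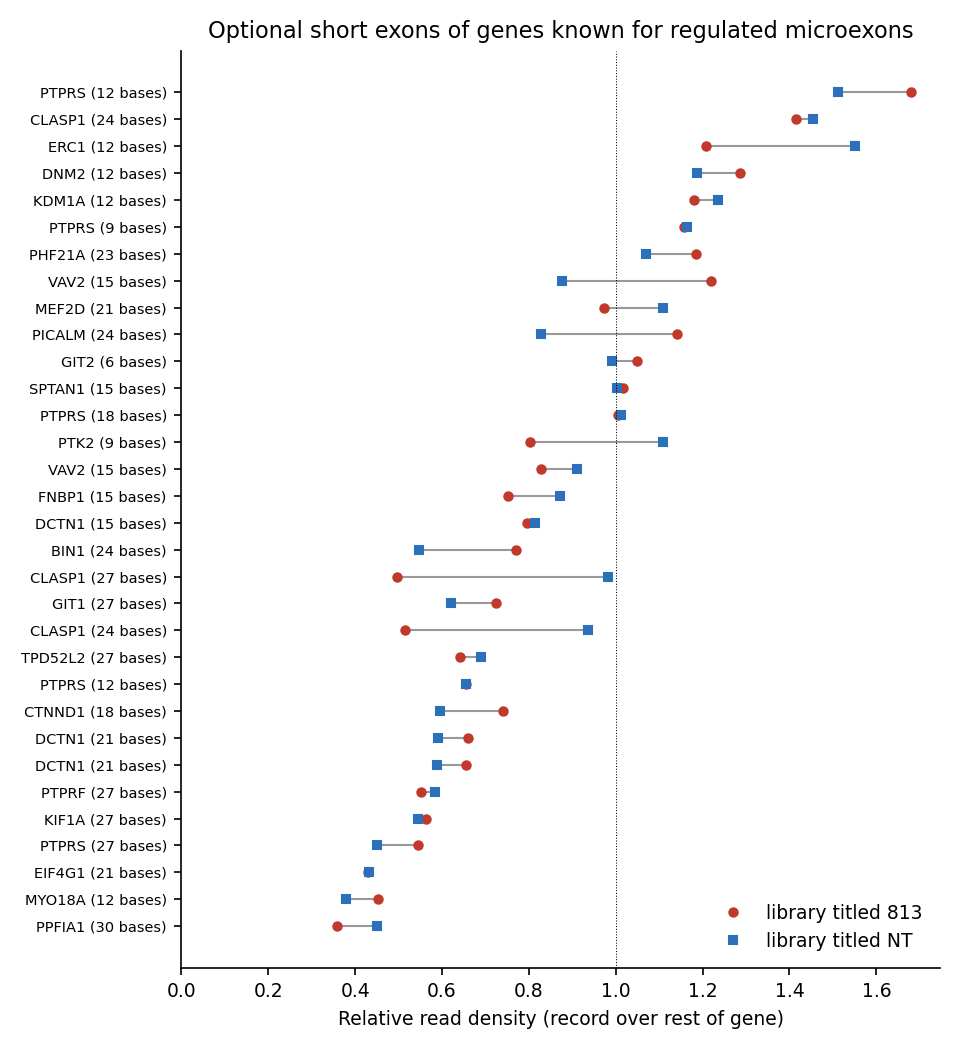
Relative read density (horizontal axis; 1 is the density of the rest of the gene) of 32 short exons that some GENCODE transcripts skip, in genes known for regulated microexons, in the 813 library (red circles) and the NT library (blue squares). Values run from 0.36 for PPFIA1 in the 813 library to 1.68 for the 12-base PTPRS exon, and pairs with few reads, such as CLASP1, lie farthest apart.

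EWSR1, the 5′ partner of the tumour's fusion gene, has an 18-base record (chr22:29670254-29670271) that 12 spanning transcripts skip and 2 matched transcripts include. It had 280 reads in the 813 library and 266 in the NT library, with relative densities of 0.90 and 0.81. The records on either side stood at 1.28 and 1.20 before it and 1.39 and 1.33 after it. Its departure was 0.16 (-0.19 to 0.52). Reads of the fusion and of intact EWSR1 were not separated, and the part of the fusion in these densities was not tested. FLI1 and RUNX3 have no record of 30 bases or fewer.

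Collagen genes held 86 short records in 30 genes, of which 55 were 27 bases and 80 were divisible by 3. The collagen triple helix is built from a repeat of glycine followed by a pair of other residues. Glycine is written as GGN codons, and many collagen exons hold whole repeats. In 45 of the 53 matched 27-base records of collagen genes (84.9%), GG stood at bases 1 and 2, 10 and 11, and 19 and 20 of the transcript strand, against 2 of 198 (1.01%) in other genes. A match of these letters is a description of the sequence only. Of the collagen records, 22 in 10 genes held 20 or more reads, with departures of -0.87 to 0.47 and a median of -0.12, and 0 were called.

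COL6A1, a chain of the microfibrillar collagen VI, had 6 such records, of 9 to 30 bases, with 77 to 131 reads in the 813 library and 69 to 106 in the NT library. Their log2 folds ran from -0.33 to 0.58, beside 0.11 to 0.12 for the other records of COL6A1. COL16A1, a chain of collagen XVI, had 4 records of 27 bases with 99, 105, 105 and 102 reads in the 813 library and 26, 18, 29 and 25 in the NT library. All 4 were higher in the 813 library, by log2 folds of 1.83, 2.44, 1.76 and 1.93, and the rest of COL16A1 had 2.21 to 2.22. The departures of these 4 records lay between -0.45 and 0.23. Those at chr1:32159745-32159771 and chr1:32161362-32161388 begin with GT and do not hold the GG pattern described above. All 6 fibroblast markers listed were measured, with summed levels of 3558 and 2652 CPM in the 813 and NT libraries. Most of this sum was collagen itself, COL1A2 at 2614 and 2168 CPM and COL3A1 at 393 and 70.1 CPM. COL1A1 and DCN had log2 folds of -0.30 (-0.37 to -0.24) and -0.31 (-0.67 to 0.04), the other way, and PDGFRB had 0.89 (0.84 to 0.94). The part of other cell types in the collagen levels was not tested.

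Butyrophilins are immunoglobulin-like membrane proteins, of which BTN3A1 takes part in sensing phosphoantigens by gamma delta T cells. Their genes held 29 short records in 10 genes, 16 of 27 bases and 11 of 21 bases, and 16 in 5 genes held 20 or more reads. The 5 records of BTN3A3 had 18 to 39 reads in the 813 library and 6 to 22 in the NT library, and the 4 records of BTN3A1 had 30 to 34 and 30 to 35. The log2 folds of the BTN3A3 records, 0.70 to 1.43, did not pass the rule, nor did those of BTN3A1, from -0.12 to 0.10. The matching 27-base exons of these copies share 17, 19 and 25 of their 27 bases, and reads that leave the exon could be split between the genes. Myosin heavy chain genes held 25 records in 14 genes, 14 of them of 28 bases. The 28-base exon of MYH9, a non-muscle myosin, had 772 and 730 reads, relative densities of 1.02 and 1.08 and a departure of -0.09 (-0.30 to 0.13).

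Taken by itself, the level of a short record mostly showed the level of its gene. Of 705 records, 57 (8.09%) were called by log2 fold at 2-fold or more with the interval on 1 side of no difference, 26 higher and 31 lower in the 813 library. The same rule called 10.7% of all 115950 records, 6.97% higher and 3.7% lower. Under plain totals, which shift every log2 fold by 0.13, the split became 35 higher and 24 lower. Of the 57 records, 56 had the same sign as the rest of their gene, TRIM39-RPP21 being the exception, and in 37 the rest of the gene was itself 2-fold or more the same way. TGFBI, a secreted matrix protein, had a 25-base record with 1823 and 362 reads, a log2 fold of 2.26 (2.03 to 2.496) beside 2.19 for the gene. PGF, a growth factor of the VEGF family, had a 30-base record with 552 and 82 reads, 2.67 (2.20 to 3.19) beside 2.84. The 7-base MACF1 record had the highest fold, 3.53 (1.13 to 9.23), beside 1.91 for the gene. SHANK1, a scaffold of the postsynaptic density, had a 27-base record with 4 and 29 reads, -2.79 (-6.15 to -0.88) beside -1.96.

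Regulators of microexons were read at gene level from a list of 32 genes, of which 24 reached 1 CPM in at least 1 library. Of these 24, 0 were higher and 2 lower in the 813 library, beside 13.9% of all 12254 genes measured (9.55% higher and 4.33% lower). The 2 lower genes were the neuronal RNA-binding protein genes ELAVL3, at 145 and 445 pairs, or -1.69 on the log2 scale (-1.97 to -1.42), and RBFOX3, with 8 and 48 pairs and -2.59 (-3.95 to -1.57). Both are also on the list of neuron markers, whose 8 genes summed to 29.9 and 48.0 CPM, with STMN2 and ELAVL4 at 0 pairs in both libraries. Members of that list differed: SYT1 had 293 and 150 pairs, at 0.89 on the log2 scale (0.60 to 1.18), SNAP25 had 0.07 (-0.40 to 0.54), and SYN1 had -1.02 (-1.28 to -0.77). The part of this in the result was not tested. SRRM4, the main activator, had 1 and 3 pairs and was not measured, and SRRM3, its relative, had 65 and 96 pairs, a log2 difference of -0.63 (-1.11 to -0.17). PTBP1, the repressor, had 26097 and 29849 pairs, a log2 difference of -0.27 (-0.29 to -0.24), and PTBP2, its neuronal paralog, 31 and 25. RBFOX2, a splicing factor that binds beside regulated exons, had 3912 and 2737 pairs and 0.44 (0.37 to 0.51). SRSF11 and RNPS1, cofactors of microexon splicing, had log2 folds of 0.29 (0.06 to 0.53) and -0.27 (-0.32 to -0.23), and NOVA1, a neuronal splicing factor, -0.42 (-0.84 to -0.02). The median of the 24 genes was -0.18, beside 0.01 for all genes measured.

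At the length limit, the 92 records of 30 bases with 20 or more reads had a median departure of -0.01, and the 59 records of 31 bases, which fall outside, -0.03.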

How the data were processed

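Poly(A) RNA libraries of A673 cells were sequenced, 1 per group. Per the submitters' processing notes, CASAVA 1.9, TopHat2 2.0.6, HTSeq and genome build hg19 were used, with no role or order given; which annotation and strand setting served is not given in the sources used here. Overlapping genes and antisense partners therefore cannot be separated. The authors deposited, per the file headers, counts and RPKM values for each gene and each exon. All gene counts are even and were halved to pairs. Exon counts are reads, and a read counts in each record that it touches; they were halved and rounded up for intervals only.

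TMM factors of 1.05 (813) and 0.954 (NT) came from edgeR 4.0.16 under R 4.3.3. Log2 folds use a prior of 0.5 and compare the 813 library with the NT library. Departures were the fold of a record over that of the other records of its gene. They carry an exact conditional 95% interval of the odds ratio (scipy 1.17.1, numba 0.67.0), checked on simulated counts. The simulated counts were all even, while many exon counts are odd. The check therefore does not cover odd counts or reads shared between records. Records needed 20 summed reads, and 20 over the other records. Relative density used start positions, length plus a read length of 52 bases, estimated from the same densities, minus 1. PCR copies are not independent molecules, so intervals cover counting error only. The authors' RPKM (deposited per exon and per gene) served as an alternative only.

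The members and gene lists were chosen with earlier results of these data known. Named records were all called records, the best-read records of known microexon genes, the 10 with the most reads, the 5 shortest, the records of the 5 genes with most records, those of EWSR1, and set regulators. MEF2D, TGFBI, PGF, SHANK1, CLASP1, MACF1, PPFIA1 and the GSTM2 neighbours were named after their values were seen. Alternatives were other scalings (DESeq2 1.42.0 size factors, plain totals), other reference records, read minimums, length limits and interval rules.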

Additional observations from a re-analysis of the deposited data

How the results depend on the processing

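With 1 library per group no alternative measures the spread between cultures. The count of 5 departures became 1 against the nearest records on each side, 1 with the interval beyond 1.5-fold, 10 with reads not halved and 8 at 1.5-fold or more; it was 4 or 5 under the other limits, including 2 chosen after seeing the data (positions under several genes left out, records within 30 bases left out). GSTM2 was called in each. By size alone, 20 records departed 2-fold or more, and 29 by the authors' RPKM, by which TRIM39-RPP21 departed by 3.50 in place of 1.52. The 57 log2 folds became 98 with reads not halved and 28 beyond 1.5-fold. Without the read-length correction the median relative density was 2.80 in place of 1.09. The share divisible by 3 was 54.3% without touching records. Of the alternatives run on them, all chosen after seeing the data, plain totals and DESeq2 size factors left 2 regulators called, and the nearest records and unhalved reads left 0 known-gene records called; other limits were not run on these. The 587 records with 1 to 19 reads and the 949 with 0 give no fold at this depth. No paired analysis was possible because each group has 1 library and the labels carry no replicate numbers.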
